A study of Mus musculus with 4 samples.

Results

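The gene rows of mouse chromosome 6 were compared between 2 clonal cell lines. Members were all rows placed on chromosome 6 with at least 20 counts summed over the 4 libraries, leaving out the Hoxa genes. This gave 756 members of 1236 chromosome 6 rows and of 23358 rows in all. Of the others, 468 rows were under the minimum, 306 of them at 0 in every library, and 12 were Hoxa rows. At the limit, 5 members had exactly 20 counts (Cadps2, Fscn3, Cml3, Clec4a1 and Dyrk4), and 9 rows just outside it had 18 counts. A filter on low counts left 723 members tested and 33 untested, and no untested member had a mean above 0.352 CPM (counts relative to the scaled total of a library). The proximal part, with gene starts below 30 Mb, held 87 members (83 tested), and the rest of the chromosome 669 (640 tested). The chromosome and its proximal part were selected on the difference between these same libraries, so that medians and counts over the members are descriptions with no test.

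Both clonal lines are labelled as progenitors of interstitial cells of Cajal, which pace the contractions of gut muscle, and both derive from the stomach's muscle layers. Cells of 2xSCS2F10 were of C57BL/6J origin and were kept at 37 °C in a neural stem cell medium with 5% chick embryo extract. Those of 2xSCS70 came from H-2Kb-tsA58 mice, which carry a temperature-sensitive large T antigen under an interferon-inducible promoter, and were grown at 39.5 °C in that medium with no chick embryo extract named and without interferon gamma. Each line had 2 libraries, and each line is 1 clone. Line, strain, transgene, temperature and medium changed together and cannot be told apart. Separate cultures for the 2 libraries of a line are not stated in the labels, so p-values measure the spread between libraries alone, and that spread may be technical.

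Genes on a chromosome share its copy number and, over shorter stretches, the state of its chromatin. In cultured lines a whole chromosome or an arm can be gained or lost, and the RNA of many of its genes can then move together. Mouse chromosome 6 carries imprinted genes near its centromere, genes of caveolae and of a hepatocyte growth factor receptor, and toward its far end a cluster of receptors of natural killer cells. DNA copy number was not analysed here.

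Depth was 40319972 and 45098902 counts for the 2xSCS2F10 libraries, and those of 2xSCS70 reached 48971264 and 44737008, replicates 1 and 2 in that order, which is also the order used for values below. All counts were even, so that 1 fragment equals 2 counts. Of 7 markers of interstitial cell of Cajal progenitors, summed levels in 2xSCS2F10 were 491 and 461 CPM, and those in 2xSCS70 were 749 and 715 CPM. The list was split, with 2 markers called higher and 2 lower in 2xSCS70, and Kit was at the floor of 3 fragments or under it in each library. Over all tested genes 18.8% were called higher and 21.8% lower. None of the markers of any cell type examined lies on chromosome 6. Summed smooth muscle markers stood at 4910 and 8750 CPM in 2xSCS2F10 against 716 and 671 CPM in 2xSCS70, with 4 of 5 called lower. Summed mesothelial markers stood at 1870 and 1790 against 27.2 and 22.6 CPM, with 4 of 4 called lower, while macrophage, endothelial, glial and epithelial sums were at most 5.18 CPM in any library. The part that these cell type differences play in the chromosome 6 values was not tested. In bulk RNA, fewer cells of a type and less RNA per cell cannot be told apart.

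Promoter sequences are shown for 4 members from different parts of the range. Strap, a widely expressed gene, lay near the chromosome median, and Col1a2 was the most abundant member. Among called genes averaging 10 CPM or more, lines apart, C1s lay farthest below the median and Thsd7a farthest above it. Each stretch is the 250 bases before the start of the gene, from RefSeq on GRCm38.p6, 5′ to 3′ on the strand of the gene. Capitals mark matches on either strand to 3 motifs. The TATA box was searched with the letters TATAAA. For the GC box the letters were GGGCGG. The CCAAT box was searched by the letters of its name. The Strap stretch lies at chr6:137734832-137735081 on the plus strand, that of Col1a2 at chr6:4505368-4505617 on the plus strand, that of C1s at chr6:124542360-124542609 on the minus strand and that of Thsd7a at chr6:12749254-12749503 on the minus strand.
Strap: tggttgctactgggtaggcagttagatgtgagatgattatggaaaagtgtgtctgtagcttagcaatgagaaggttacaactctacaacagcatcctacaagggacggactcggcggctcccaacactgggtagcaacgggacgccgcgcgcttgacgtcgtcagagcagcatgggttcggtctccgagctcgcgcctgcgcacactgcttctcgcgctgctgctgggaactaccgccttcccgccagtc
Col1a2: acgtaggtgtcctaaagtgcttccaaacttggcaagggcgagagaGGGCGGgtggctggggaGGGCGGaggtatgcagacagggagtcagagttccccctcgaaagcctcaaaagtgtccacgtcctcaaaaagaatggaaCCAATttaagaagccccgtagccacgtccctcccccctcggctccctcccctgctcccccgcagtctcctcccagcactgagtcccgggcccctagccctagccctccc
C1s: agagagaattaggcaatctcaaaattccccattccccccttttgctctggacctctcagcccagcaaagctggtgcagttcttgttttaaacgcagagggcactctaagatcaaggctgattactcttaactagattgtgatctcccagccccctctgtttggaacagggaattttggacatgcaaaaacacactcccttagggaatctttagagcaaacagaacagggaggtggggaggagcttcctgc
Thsd7a: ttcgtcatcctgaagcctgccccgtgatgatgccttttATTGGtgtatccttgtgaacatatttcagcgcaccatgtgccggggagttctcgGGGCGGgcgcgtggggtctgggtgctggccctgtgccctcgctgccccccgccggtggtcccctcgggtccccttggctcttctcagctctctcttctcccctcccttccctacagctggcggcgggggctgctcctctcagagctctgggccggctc

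The Strap stretch held 19 CpG dinucleotides, 0.92 of the number expected from its base composition, and no match to the 3 motifs. The Col1a2 stretch held 11 CpG (0.47 of expected), 2 GC boxes and 1 CCAAT box. C1s had a single CpG in its stretch (0.07 of expected) and no motif match, and Thsd7a had 15 CpG (0.57 of expected), 1 GC box and 1 CCAAT box. Over all 32851 RefSeq promoter windows, 12.4% of such 250-base stretches held a TATA box, 32.7% a GC box and 33.8% a CCAAT box. A match is a description of letters and not a binding site.

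The comparison between the lines asked how far chromosome 6 genes moved together. Changes are given as log2 fold change, 2xSCS70 minus 2xSCS2F10, so that a negative value means a lower level in 2xSCS70. The median of the 723 tested members was -0.34, a level 21.1% lower in 2xSCS70, with quartiles of -0.95 and 0.28. The other 18 autosomes had a median of 0.02 over 13299 genes. Below 0 lay 480 of the members, or 66.4%, against 48.8% of genes on the other autosomes. Relative to the other autosomes, the chromosome 6 median was lower by 22.4% (a difference of -0.37 on the log2 scale).

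Counts of single genes pointed the same way. With edgeR's quasi-likelihood test at an adjusted p under 0.05, 263 members (36.4%) were called lower and 73 (10.1%) higher in 2xSCS70. Over all 14496 tested genes 21.8% were called lower and 18.8% higher, and on the other 18 autosomes 21.2% and 18.2%. Lower calls outnumbered higher ones 3.6 to 1 on chromosome 6 and 1.17 to 1 on the other autosomes. This split moved with the scale. With limma on log2(RPKM + 1), 153 members were called lower and 95 higher, and over all tested genes 1828 and 3218. On log2(RPKM + 0.1) the counts were 160 and 93 among members and 1964 and 3377 over all genes. Upper quartile scaling gave 235 and 82 among members and 2818 and 3129 over all genes. Under these 3 settings higher calls outnumbered lower ones over all genes, while on chromosome 6 lower calls still outnumbered higher ones. The remaining 387 members were not called. Genes whose 2 lines did not overlap numbered 395 lower (54.6%) and 173 higher (23.9%) among the members, and 37.2% and 39.7% among genes of the other autosomes.

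The number of calls depended on each 2xSCS70 library. Without its replicate 1, 46 members were called lower and 13 higher, and without its replicate 2, 49 and 14. Without 2xSCS2F10 replicate 1 the counts were 349 and 141, and without its replicate 2 they were 367 and 122. With a single library left in a line, its spread was taken from the other line. Between the 2xSCS2F10 libraries 47 of 723 members (6.5%) differed by over 2-fold, against 1 (0.138%) between the 2xSCS70 libraries, and leaving out 1 of the former removes that difference. No member called in the full data changed sign in any fit that left out a library. Where the lines do not overlap, leaving out a library can hardly change the sign, so this is no check on the calls. Below, a call lost without either 2xSCS70 library is one lost in both of the fits that leave out 1 of them.

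**Figure D1:**
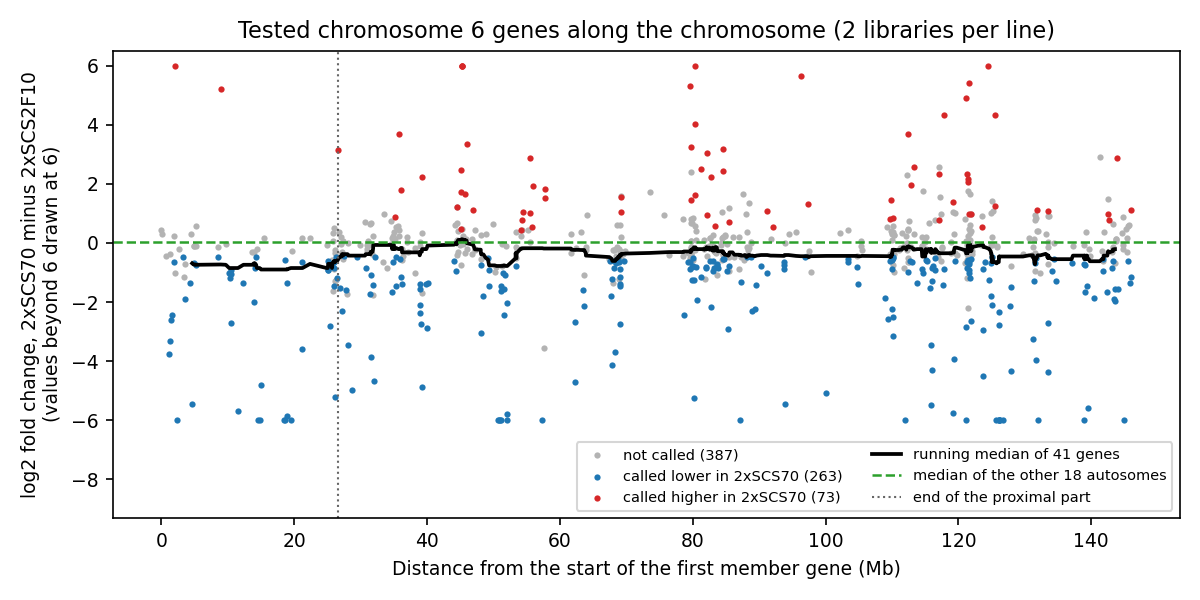
Log2 fold change of each tested chromosome 6 gene (2xSCS70 minus 2xSCS2F10, 2 libraries per line) against the distance in Mb of its start from the first member. Blue points are the 263 genes called lower, red points the 73 called higher and grey points the 387 not called, values beyond 6 are drawn at 6, and the running median of 41 genes (black) lies below the median of the other 18 autosomes (green, 0.02) over most of the length and lowest left of the dotted line that ends the proximal part.

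Among the 19 autosomes chromosome 6 had the second lowest median. Chromosome 18 was lower, at -0.46, and chromosome 17 came next, at -0.24. Chromosome 12 had the highest median, at 0.37. Medians of the other autosomes thus spread over a range wider than the offset of chromosome 6. Its position was the second lowest in the fit reported here and in each of 13 others. Those fits reuse the same libraries, on which the chromosome was selected. A change of scaling shifts all genes nearly alike and can hardly alter the order, so this is no independent check. The chromosome 6 genes also spread widely, with an interquartile range of 1.22 where those of the other autosomes ranged from 0.92 to 1.23.

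**Figure D2:**
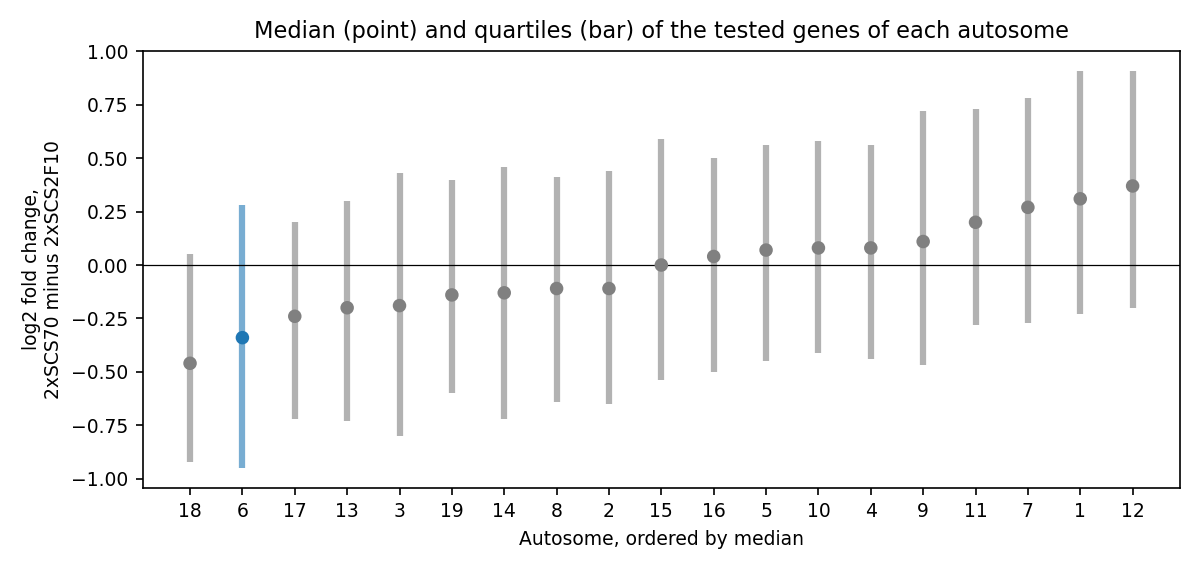
Median (point) and quartiles (bar) of the log2 fold change between the lines over the tested genes of each autosome, ordered by median. Chromosome 6 (blue, -0.34) stands second from the left, between chromosome 18 (-0.46) and chromosome 17 (-0.24), and its bar overlaps those of all other autosomes.

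The offset was present in each pair of single libraries. On log2(CPM + 0.5), and relative to the other autosomes, the median of chromosome 6 was -0.36 and -0.34 in the 2 pairs with 2xSCS2F10 replicate 1 and -0.32 and -0.31 in the 2 pairs with its replicate 2. Between the 2 libraries of a line it was -0.01 in 2xSCS2F10 and 0.02 in 2xSCS70. All 4 pairs between lines therefore lay farther from 0 than both pairs within a line. This was not particular to chromosome 6. Chromosome 18 had -0.47 to -0.36 between lines against 0.06 and 0.03 within them. Chromosome 12 had 0.33 to 0.37 between lines against 0.01 and 0.02. The 4 pairs share libraries and are not independent.

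**Figure D3:**
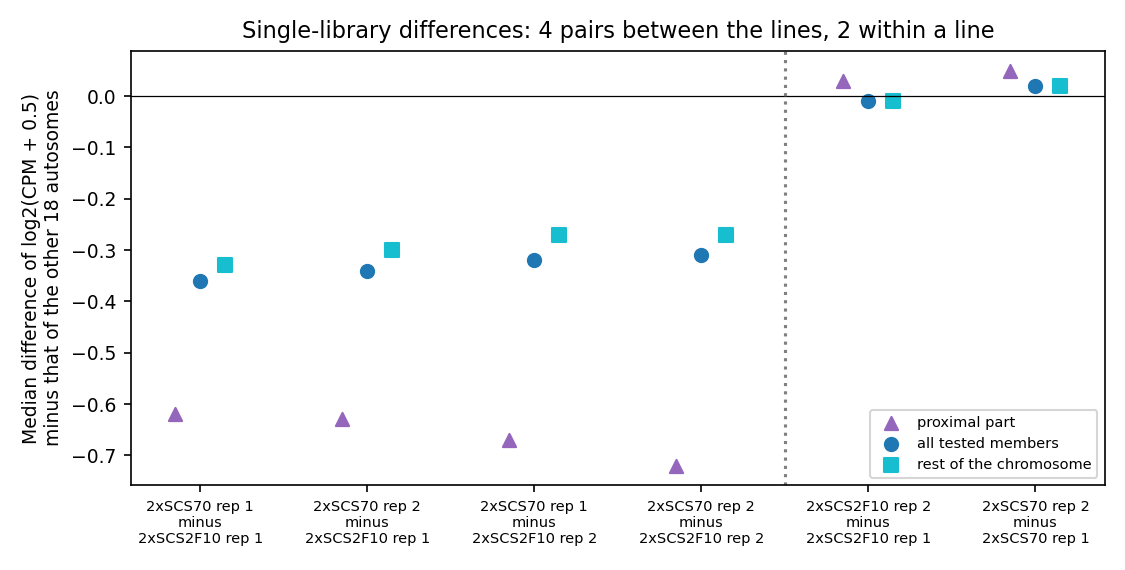
Median difference in log2(CPM + 0.5) between 2 single libraries, minus that of the other 18 autosomes, for the proximal part, all tested members and the rest of chromosome 6. The 4 pairs between lines (left) lie between -0.72 and -0.27, and the 2 pairs within a line (right) between -0.01 and 0.05.

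As a share of all autosomal counts without the ribosomal repeat Rn45s, members made up 7.01% and 7.53% in 2xSCS2F10 and 4.79% and 4.74% in 2xSCS70. The collagen gene Col1a2 alone took 1.11% and 1.78% in 2xSCS2F10 and 0.135% and 0.126% in 2xSCS70. Without Col1a2 the shares were 5.89% and 5.76% against 4.65% and 4.61%, and the lines still did not overlap. Of the 723 tested members, 12 were at 0 in both libraries of a line, 5 of them detected in 2xSCS70 and 7 in 2xSCS2F10. With these 12 set at their lower bounds, direction kept, the median of the members was again -0.34. A median responds little to such a change, so this is no check on it.

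The proximal part had a lower median than the rest, by an amount that depended on the level of the genes. In 3 classes of mean CPM, described below, the gap was -2.23 in the lowest, -0.29 in the middle and -0.06 in the highest. Its 83 tested members had a median of -0.71 (39.0% lower in 2xSCS70), with 69 of them (83.1%) below 0. The 640 tested members beyond 30 Mb had a median of -0.30 (18.6% lower), with 411 (64.2%) below 0. Called lower were 45 proximal members (54.2%) and 218 of the rest (34.1%), against a background of 21.2% on the other autosomes. Called higher were 3 proximal members (3.61%) and 70 of the rest (10.9%), against 18.2%. The difference between the medians was -0.42, and it ranged from -0.28 to -0.45 over the 4 pairs of single libraries, against 0.04 within each line.

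A gap of this kind between a first 30 Mb and the remainder was not confined to chromosome 6. Chromosome 9 had a larger one, at -0.52, chromosome 5 had -0.37, and chromosome 3 had the opposite, at 0.59. Without either 2xSCS70 library the proximal lower calls numbered 7 (replicate 1 left out) or 9 (replicate 2 left out).

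In windows of 10 Mb, 14 of 15 medians on chromosome 6 lay below 0, compared with 122 of 231 windows (52.8%) on the other autosomes. The first 3 windows had medians of -0.64, -0.91 and -0.71. Only 5 of the 231 other windows (2.16%) were as low as the highest of these. The window from 10 to 20 Mb was the lowest of the chromosome, with 14 of 21 genes called lower and 1 higher. The one window not below 0 ran from 40 to 50 Mb, with a median of 0.02, 11 of 49 genes called lower and 10 higher. Beyond 50 Mb the medians stayed between -0.48 and -0.21.

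The 3 most abundant genes of the lowest window were Cav1, Capza2 and Met. Cav1 (chr6:17306335-17341328, mm10), the main coat protein of caveolae, had 578 and 600 CPM in 2xSCS2F10, and in 2xSCS70 it had 150 and 145 CPM. The lines were far apart and replicates close, and edgeR gave 3.99-fold lower (SE 0.12 on the log2 scale, adjusted p = 0.000806). Met (chr6:17463957-17573980), the receptor of hepatocyte growth factor, stood at 252 and 202 against 131 and 121 CPM, 1.8-fold lower (log2 -0.85, SE 0.15, edgeR adjusted p = 0.0128). Capza2, a capping protein subunit of actin filaments, stood at 314 and 290 against 208 and 222 CPM (log2 -0.49, SE 0.12, edgeR adjusted p = 0.0286), a call lost with upper quartile scaling (adjusted p = 0.0548). With limma on log2(RPKM + 1) neither Met nor Capza2 was called (adjusted p = 0.109 and 0.379), nor on log2(RPKM + 0.1) (0.0971 and 0.392). Cav2, the neighbour and partner of Cav1, was not called, at 93.7 and 72 against 64.8 and 68.1 CPM (edgeR adjusted p = 0.179). In the window at 40 to 50 Mb the 3 most abundant genes were all called lower despite its median of 0.02: Zyx, a focal adhesion protein, had 1080 and 968 against 399 and 295 CPM (log2 -1.56), Pdia4, a disulfide isomerase of the endoplasmic reticulum, 337 and 448 against 202 and 203 (log2 -0.95), and Arhgef5, a guanine nucleotide exchange factor, 230 and 342 against 107 and 111 (log2 -1.39). Of the 6 genes called here, Cav1 was called in each fit that left out a library, and Met, Capza2, Zyx, Pdia4 and Arhgef5 were not called without either 2xSCS70 library.

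The 3 proximal members called higher were Thsd7a, Asb4 and Fam40b, named because they go against the direction of their neighbours. Thsd7a, which encodes a membrane protein with thrombospondin repeats, is described below. Asb4, an imprinted gene of a SOCS box protein, was at 0 in both 2xSCS2F10 libraries and at 1.63 and 2.14 CPM in 2xSCS70, at least 12-fold higher against a floor of 3 fragments per library. Fam40b had 0.36 and 0.21 against 2.5 and 2.59 CPM (8.85-fold higher, edgeR adjusted p = 0.00484). The calls of Asb4 and Fam40b were lost without either 2xSCS70 library.

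The gap between the proximal part and the rest depended on the level of the genes. The offset of the whole chromosome from the other autosomes changed less. Tested autosomal genes were divided by mean CPM into 3 classes of equal size, a choice made after the chromosome values were seen. In the lowest class, up to 7.75 CPM, the proximal median was -2.04 (26 genes), while the rest of chromosome 6 had 0.19 (232 genes) and the other autosomes 0.32. All members of that class together had a median of 0.05, with 127 of 258 below 0. In the middle class, up to 45.9 CPM, these medians were -0.57 (29 genes), -0.28 (192 genes) and 0.02. In the highest class they were -0.55 (28 genes), -0.49 (216 genes) and -0.09. The proximal part minus the rest was -2.23, -0.29 and -0.06 in the 3 classes, from the lowest up, over 26 to 29 proximal genes each. Chromosome 6 minus the other autosomes was -0.27, -0.32 and -0.40.

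Among the most abundant class, 201 of 244 chromosome 6 genes (82.4%) lay below 0, and 121 (49.6%) were called lower and 8 (3.28%) higher. On the other autosomes 56.2% of genes in that class lay below 0, and 26.0% and 13.0% were called lower and higher. Here chromosome 6 had the lowest median of all autosomes, -0.49, next to -0.48 on chromosome 18, where 81.1% of genes lay below 0. Each of the 15 windows of 10 Mb had a median below 0, from -0.66 to -0.24, over 4 to 37 genes each. Windows of this class on the other autosomes were not compared. The 8 abundant genes called higher were Osbpl3, Vopp1, Anxa4, Mcm2, Lrig1, Gxylt2, Il17rc and 2810474O19Rik, named because they are the exceptions.

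**Figure D4:**
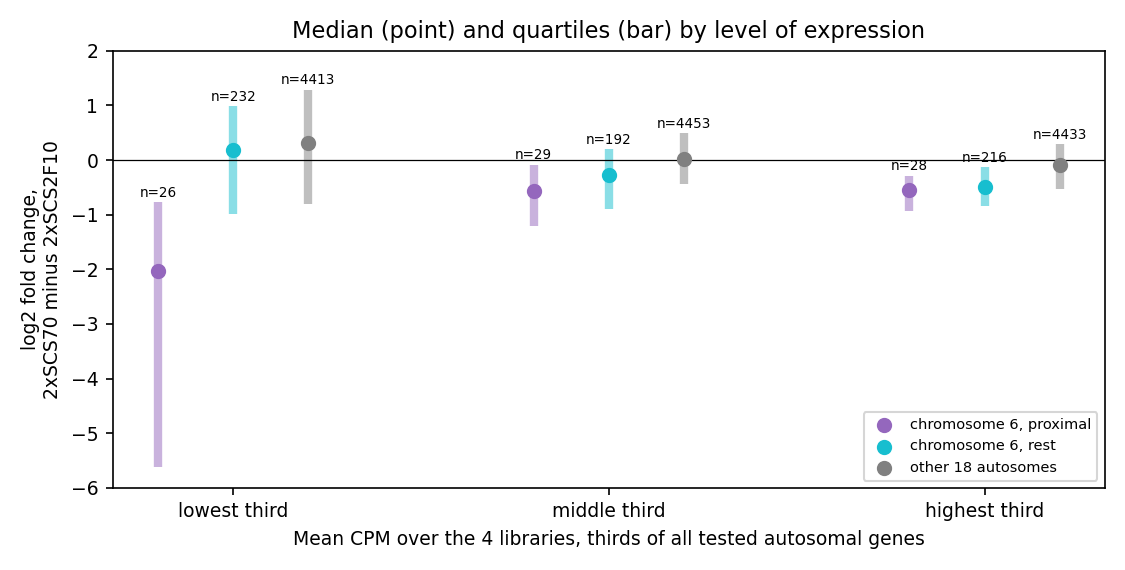
Median (point) and quartiles (bar) of the log2 fold change between the lines for proximal chromosome 6 genes, the rest of chromosome 6 and the other 18 autosomes, in 3 equal classes of mean CPM. Below 7.75 CPM the proximal genes stand apart at -2.04, and above 45.9 CPM both sets of chromosome 6 genes lie near each other, at -0.55 and -0.49, below the other autosomes at -0.09.

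The members with the highest level per length, in the deposited RPKM, were Col1a2, Rpl32, Tmsb10, Fbln2, Cald1 and Ptms. Col1a2 (chr6:4505697-4541543), the alpha 2 chain of type I collagen, had 1620 and 2360 RPKM in 2xSCS2F10 and 193 and 161 RPKM in 2xSCS70. Both 2xSCS2F10 libraries were far higher, although they differed between themselves, and on CPM the gene was 13.6-fold lower in 2xSCS70 (log2 -3.76, SE 0.37, edgeR adjusted p = 0.00274). Cald1, the actin-binding caldesmon, had 395 and 446 against 156 and 148 RPKM (log2 -1.72 on CPM, SE 0.21, edgeR adjusted p = 0.00431). Tmsb10, an actin monomer-binding thymosin, had 480 and 369 against 356 and 295 RPKM, and Ptms, parathymosin, 344 and 283 against 259 and 209 RPKM. Both were called lower on CPM, by 1.53-fold and 1.58-fold, though their calls were lost on log2(RPKM + 1) with limma (adjusted p = 0.347 and 0.245) and on log2(RPKM + 0.1) (0.337 and 0.24). Rpl32, a ribosomal protein gene (log2 -0.50, SE 0.20, edgeR adjusted p = 0.101), and Fbln2, the matrix protein fibulin 2 (log2 -0.43, SE 0.24, edgeR adjusted p = 0.203), were not called. The calls of Col1a2, Cald1, Tmsb10 and Ptms were each lost without either 2xSCS70 library.

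Genes that departed from the chromosome median were frequent, as they were on the other autosomes. By 2-fold or more, 112 tested members (15.5%) lay above the median of chromosome 6 and 136 (18.8%) below it, against 14.7% and 14.8% around the medians of the other autosomes. The median absolute departure was 0.61 on chromosome 6 and 0.53 on the others. Within 0.5 of the chromosome median lay 308 members (42.6%), against 48% of genes on the other autosomes. For the genes named next, the rule took the 12 called genes farthest each way that averaged 10 CPM or more and whose lines did not overlap.

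Farthest below was C1s (chr6:124530344-124542359), a serine protease that starts the classical complement cascade. Its levels in 2xSCS2F10 were 215 and 506 CPM, and in 2xSCS70 they were 0.254 and 0.411 CPM, 1090-fold lower (log2 -10.08, SE 0.66, edgeR adjusted p = 0.000997). Olr1 (chr6:129485247-129507165), a receptor for oxidized low density lipoprotein, had 77 and 279 against 0.181 and 0.247 CPM (log2 -9.69, SE 0.92, edgeR adjusted p = 0.00248). Both genes were at or near the floor in each 2xSCS70 library and varied by more than 2-fold between the 2xSCS2F10 libraries.

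The other 10 farthest below were Wipf3, Aldh1l1, Chn2, Lrtm2, Frmd4b, Actg2, Plxna4, Cttnbp2, Fam180a and Ccnd2. Ccnd2 (chr6:127125709-127151048), the cell cycle cyclin D2, was the most abundant of them per length, with 131 and 92 RPKM in 2xSCS2F10 and 6.52 and 4.93 RPKM in 2xSCS70 (log2 -4.51 on CPM, SE 0.19, edgeR adjusted p = 0.000456). Actg2 (chr6:83512909-83536251), the gamma actin of visceral smooth muscle, had 108 and 175 against 3.66 and 3.74 CPM (log2 -5.26, SE 0.30, edgeR adjusted p = 0.000721), beside the smooth muscle marker sums given above. Aldh1l1, a folate enzyme, had 42.9 and 43.1 against 0.58 and 0.575 CPM, with replicates nearly equal in both lines. Plxna4, a semaphorin receptor, had 107 and 212 against 5.48 and 4.77 CPM, and Cttnbp2, a cortactin-binding protein and the one proximal gene among the 12, 31.7 and 63.4 against 1.27 and 2.18 CPM. Chn2 overlaps 9130019P16Rik and Lrtm2 overlaps Cacna2d4, and reads of overlapping genes could not be assigned by strand. Of these 12 genes, Wipf3 (10.8 and 33.9 against 0.181 and 0.205 CPM) was not called without either 2xSCS70 library.

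Farthest above was Thsd7a (chr6:12311608-12749253), a proximal gene in the 10 Mb window with the lowest median. Its levels in 2xSCS2F10 were 1.49 and 0.997 CPM, and in 2xSCS70 they were 44.4 and 46.5 CPM, 36.4-fold higher (log2 5.19, SE 0.24, edgeR adjusted p = 0.000506). Il17ra (chr6:120463197-120483727), the shared receptor chain for interleukin 17, had 13.4 and 13.1 against 67.7 and 64.2 CPM, 4.98-fold higher (log2 2.32, SE 0.13, edgeR adjusted p = 0.000688). For both genes the 2 libraries of a line lay close together and the lines far apart. Cand2 (chr6:115774557-115805555), a regulator of cullin ubiquitin ligases, had 2.67 and 2.62 against 34.7 and 32.8 CPM, and its far end overlaps the much more abundant Rpl32, so that the reads of this pair cannot be told apart where they overlap.

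The other 9 farthest above were Tgfa, Eno2, Gprin3, Fam190a, Dennd2a, Tcf7l1, Gxylt2, 2810474O19Rik and Osbpl3. Tgfa, a ligand of the epidermal growth factor receptor, had 6.99 and 4.04 against 24.9 and 27.3 CPM (log2 2.24, SE 0.29, edgeR adjusted p = 0.0056). Eno2, the neuronal enolase, had 3.44 and 9.03 against 26 and 26.5 CPM (log2 2.07, SE 0.46, edgeR adjusted p = 0.0223). Tcf7l1, a transcription factor of the Wnt pathway, had 15.9 and 17.6 against 52.4 and 45 CPM (log2 1.54, SE 0.15, edgeR adjusted p = 0.00255). Dennd2a, an exchange factor for Rab proteins, had 19.2 and 19.3 against 69.3 and 64.3 CPM. Of all 12, Thsd7a, Cand2, Il17ra and Dennd2a were called in each fit that left out a library. Tcf7l1 lost its call without 2xSCS70 replicate 1 and the other 7 without either 2xSCS70 library.

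**Figure D5:**
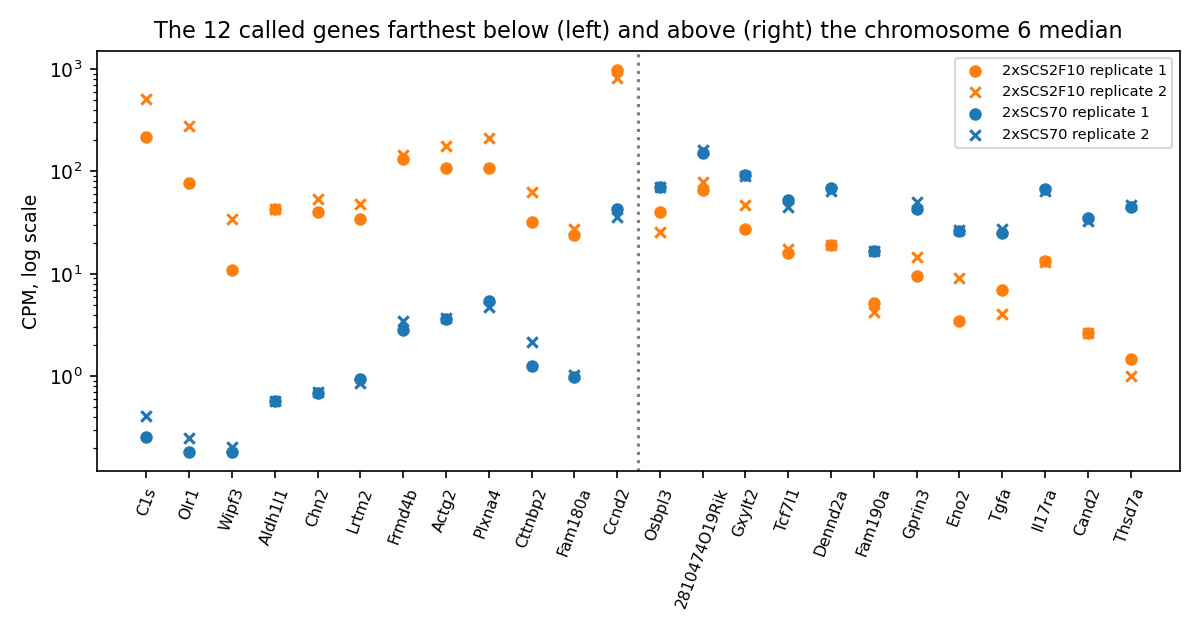
CPM on a log axis in each of the 4 libraries (orange 2xSCS2F10, blue 2xSCS70, circles replicate 1, crosses replicate 2). Shown are the 12 called genes farthest below and the 12 farthest above the chromosome 6 median, among those averaging 10 CPM or more. C1s stands at 215 and 506 against 0.254 and 0.411 CPM, Thsd7a at 1.49 and 0.997 against 44.4 and 46.5 CPM, and the lines do not overlap for any gene shown because the rule asked for that.

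Runs of neighbouring genes were counted against the median of all tested autosomal genes, not against that of chromosome 6. With 66.4% of members below 0, a long run below that line can arise without a local departure from the chromosome. The longest run of tested members below the median of all tested autosomal genes held 18 genes from Creb5 to Adcyap1r1 (53.6 to 55.5 Mb). Its median was -1.60, with 13 called lower, beside 36.4% of all tested members. Run lengths on the other autosomes are not given here. The most abundant gene of the run was Gars, the glycyl-tRNA synthetase, with 626 and 588 against 295 and 275 CPM (log2 -1.09, SE 0.12, edgeR adjusted p = 0.00387). Adcyap1r1, the receptor of the neuropeptide PACAP, had 11.6 and 7.98 against 0.0726 and 0.288 CPM (log2 -5.78, edgeR adjusted p = 0.00311), and Nod1, a sensor of bacterial peptidoglycan, 157 and 201 against 33.2 and 32.1 CPM (log2 -2.45, edgeR adjusted p = 0.00109). Creb5 at the other end was not called, at 7.09 and 3.67 against 3.19 and 2.22 CPM (log2 -0.99, edgeR adjusted p = 0.11). The call of Gars was lost without either 2xSCS70 library.

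About 2 Mb farther on, the longest run above the autosomal median held 11 genes from Ppm1k to Gprin3 (57.5 to 59.4 Mb). Its median was 0.54, with 7 called higher, beside 10.1% of all tested members. Gprin3 had 9.45 and 14.7 against 43.1 and 49.8 CPM (log2 1.94, SE 0.25, edgeR adjusted p = 0.0053), a call lost without either 2xSCS70 library. Its most abundant member, the drug transporter Abcg2, was not called, at 71.2 and 47.5 against 75.9 and 83.6 CPM (log2 0.43, edgeR adjusted p = 0.177), nor was Ppm1k, a phosphatase of branched-chain amino acid metabolism (log2 0.23, edgeR adjusted p = 0.435). The runs were picked as the longest, so their direction is part of the choice. The same rule left no room for calls the other way.

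Members were also described in 11 lists by function, chosen with earlier results of these data known, whose medians stand beside -0.34 for all tested members, and whose counts stand beside 36.4% of members called lower and 10.1% higher. Some called members of a list that the naming rule did not pick are named for contrast, after their values were seen (Peg10, Sspn, Capg, Smo, Mcm2, Gapdh, Itpr2, Cxcl12, Usp18 and Il17rc), and each lost the call without either 2xSCS70 library. The lists themselves were not changed.

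For genes of imprinted regions, 6 of 11 tested members were called lower and 2 higher, with a median of -0.43, and 7 of the 11 lie in the proximal part. Sgce, epsilon-sarcoglycan, had 18.2 and 27 against 2.18 and 2.3 CPM (log2 -3.33, SE 0.26, edgeR adjusted p = 0.00157), and its neighbour Peg10, derived from a retrotransposon, 11.5 and 31.2 against 3.3 and 3.74 CPM (log2 -2.60, SE 0.51, edgeR adjusted p = 0.0159). Dlx5, a homeobox factor, was 3.72-fold and the paraoxonase Pon2 1.55-fold lower, the call of Pon2 being lost with limma on both RPKM scales (adjusted p = 0.133 and 0.14, here and below with 1 and then 0.1 added). Mest, an imprinted hydrolase gene, was not called and overlapped between the lines, at 2.05 and 1.99 against 2.21 and 1.97 CPM. Of those named by the rule, Sgce was called in each fit that left out a library, and Asb4, Dlx5 and Pon2 lost their calls without either 2xSCS70 library.

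Matrix and adhesion genes stood well below the chromosome. In that list 9 of 14 tested members were called lower and 1 higher, with a median of -1.55. Podxl, the anti-adhesive sialomucin podocalyxin, had 809 and 1230 against 97.5 and 90.7 CPM (log2 -3.44, SE 0.25, edgeR adjusted p = 0.00127). Mfap5, a microfibril protein, had 4.78 and 5.93 against 0.109 and 0.0822 CPM. Chl1, a neural adhesion molecule, had 9.55 and 7.61 against 0.181 and 0.329 CPM, and Ptprz1, a receptor phosphatase that binds pleiotrophin, 3.96 and 6.56 against 0.109 and 0.0411 CPM. Each of these 4 was called in each fit that left out a library. Sspn, sarcospan of the dystrophin complex, was the one member called higher, at 23.2 and 24.1 against 46.8 and 45.6 CPM (log2 0.97, SE 0.12, edgeR adjusted p = 0.00493).

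The list of caveolae and actin cytoskeleton was similar, with 11 of 15 called lower, 1 higher and a median of -1.43. Besides Cav1 and Actg2, Flnc, filamin C of muscle, had 1050 and 1040 against 413 and 340 CPM (log2 -1.47, SE 0.16, edgeR adjusted p = 0.00323), and Arhgdib 50.3 and 45.1 against 7.55 and 6.99 CPM (log2 -2.71, SE 0.14, edgeR adjusted p = 0.000658). Capg, a capping protein of the gelsolin family, was the one called higher, at 11.4 and 14.9 against 30.5 and 23 CPM. Arhgdib kept its call in each fit that left out a library and Flnc did not without either 2xSCS70 library. The smooth muscle and mesothelial marker sums differed in this direction too, while those of the progenitor markers were higher in 2xSCS70. A link between any of these sums and this list was not tested.

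Of growth factor and Ras-MAPK genes, 5 of 12 were called lower and 2 higher, with a median of -0.42. Braf, the kinase downstream of Ras, had 166 and 176 against 63.9 and 66.6 CPM (log2 -1.39, SE 0.11, edgeR adjusted p = 0.00165). Rassf8, a Ras-association protein, was 3.18-fold lower, and Ptpn6, a phosphatase of blood cells, was 5.04-fold higher at a low level of 1.67 and 2.01 CPM in 2xSCS70. The calls of Braf, Rassf8, Ptpn6 and Tgfa were lost without either 2xSCS70 library.

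In the list of Wnt, Hedgehog and Hippo signalling, 6 of 9 were called lower and 1, Tcf7l1, higher, with a median of -0.80. The ligand Wnt5b had 15 and 13.2 against 0.834 and 0.575 CPM (log2 -4.31, SE 0.28, edgeR adjusted p = 0.000993), though it overlaps Fbxl14, whose reads cannot be told apart there. The ligand Wnt16 had 1.34 and 3.41 against 0.0363 and 0.0411 CPM, a ratio of 61.3 (exact 95% interval 16.5 to 514, for counting error only). Mob1a, a cofactor of the Hippo kinases, was 1.74-fold lower, a call lost with limma on RPKM (adjusted p = 0.0512 and 0.054). Smo, the Hedgehog signal transducer, had 224 and 204 against 161 and 145 CPM (log2 -0.48, SE 0.13, edgeR adjusted p = 0.0341), a call also lost with upper quartile scaling (edgeR adjusted p = 0.0582) with the replicate number as a block (0.0524) and with limma on RPKM (0.406 and 0.411). Lrp6, a Wnt coreceptor, was not called (log2 -0.42, edgeR adjusted p = 0.0967). Wnt5b kept its call in each fit that left out a library, and Wnt16 and Mob1a lost theirs without either 2xSCS70 library.

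Cell cycle and DNA repair genes lay above the chromosome, with a median of -0.00 over 19 genes, 5 called lower, 1 higher and 13 not called. Besides Ccnd2, Gadd45a, a stress response gene, had 65.1 and 78.1 against 15.7 and 17.3 CPM (log2 -2.12, SE 0.16, edgeR adjusted p = 0.00133). The kinase inhibitor Cdkn1b was 1.6-fold and the recombination gene Rad52 1.9-fold lower. With limma on RPKM neither was called (adjusted p = 0.139 and 0.14 for Cdkn1b, 0.074 and 0.0646 for Rad52). Mcm2, a subunit of the replicative helicase, was the one called higher, at 208 and 142 against 297 and 273 CPM (log2 0.70, SE 0.21, edgeR adjusted p = 0.0495), a call lost with limma on log2(RPKM + 1) (adjusted p = 0.0511). Foxm1, a factor of mitotic genes, varied more between the 2xSCS2F10 libraries (152 and 41.4 CPM) than between the lines (214 and 178 CPM in 2xSCS70) and was not called. Gadd45a kept its call in each fit that left out a library, and Cdkn1b and Rad52 lost theirs without either 2xSCS70 library.

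For glycolysis and metabolism 9 of 17 were called lower and 1, Eno2, higher, with a median of -0.64. The glucose transporter Slc2a3 had 5.29 and 7.03 against 0.435 and 0.37 CPM (log2 -3.92, SE 0.32, edgeR adjusted p = 0.00164). Gapdh, of glycolysis, had 83.4 and 56.8 against 33.7 and 28.1 CPM (log2 -1.18, SE 0.23, edgeR adjusted p = 0.0153), while Tpi1 was not called, at 536 and 700 against 448 and 423 CPM (edgeR adjusted p = 0.0702). Gapdh has many processed pseudogene copies, so its counts are uncertain, and its call was lost with limma on RPKM (adjusted p = 0.0661 and 0.0517). Mgll, a monoacylglycerol lipase, was 7.47-fold and Cmas, of sialic acid activation, 2.77-fold lower. Slc2a3 kept its call in each fit that left out a library, and Mgll, Cmas and Eno2 lost theirs without either 2xSCS70 library.

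Transcription and chromatin factors were mostly not called. Of 19, 3 were called lower, 0 higher and 16 not called with edgeR, and the median was -0.03. At an unadjusted edgeR p under 0.05 1 was higher, as with DESeq2, and limma on either RPKM scale called 2 higher. Pparg, the fat cell nuclear receptor, had 4.93 and 2.36 CPM in 2xSCS2F10 and 0 counts in both 2xSCS70 libraries, at least 29.6-fold lower against 3 fragments per library. Sox5 had 9.2 and 14.5 against 3.27 and 3.21 CPM (log2 -1.87, SE 0.29, edgeR adjusted p = 0.00829), and Rybp, a Polycomb component, was 1.41-fold lower, a call lost with the replicate number as a block (edgeR adjusted p = 0.0544) and with limma on RPKM (adjusted p = 0.376 on both scales). The chromatin remodeller Chd4 had 573 and 611 against 633 and 645 CPM and Ezh2, the Polycomb methyltransferase, 90.2 and 45.2 against 98.9 and 109 CPM, neither called. Pparg kept its call in each fit that left out a library, and Sox5 and Rybp lost theirs without either 2xSCS70 library.

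Calcium and ion channel genes had 5 of 9 called lower and 1 higher, with a median of -0.85. Itpr1, a calcium release channel of the endoplasmic reticulum, had 155 and 144 against 55.4 and 59.4 CPM (log2 -1.38, SE 0.12, edgeR adjusted p = 0.00194), whereas its paralogue Itpr2 was called higher, at 9.35 and 11.4 against 16.8 and 18.9 CPM (log2 0.78, SE 0.18, edgeR adjusted p = 0.0253). Calu, a calcium-binding protein of the secretory pathway, was 1.81-fold lower, a call lost with limma on RPKM (adjusted p = 0.0924 and 0.0896). The water channel Aqp1 was 4.11-fold and the sodium channel subunit Scnn1a 6.26-fold lower. The calls of Itpr1, Calu, Aqp1 and Scnn1a were lost without either 2xSCS70 library.

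Complement, cytokine and immune genes divided evenly, with 5 of 13 called each way and a median of 0.07. Besides C1s and Nod1, the complement protease C1ra had 19.7 and 18.1 against 2.98 and 2.26 CPM (log2 -2.85, SE 0.22, edgeR adjusted p = 0.00146), and the chemokine Cxcl12 1340 and 1470 against 545 and 565 CPM (log2 -1.34, SE 0.14, edgeR adjusted p = 0.0032). Besides Il17ra, Usp18, an interferon-induced protease, was higher, at 0.103 and 0.525 against 6.53 and 6.25 CPM (log2 4.34, SE 0.64, edgeR adjusted p = 0.00758), and Il17rc, another interleukin 17 receptor chain, at 38.4 and 34 against 70.3 and 60.3 CPM. C1s, C1ra, Nod1 and Il17ra kept their calls in each fit that left out a library.

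Widely expressed genes of translation, secretion and protein turnover stayed closest to the chromosome as a whole, with a median of -0.32 over 26 genes, 8 called lower and 0 higher with edgeR (0 higher also with DESeq2, with limma on RPKM and at an unadjusted edgeR p under 0.05). Sec61a1, of the protein translocation channel, had 425 and 541 against 257 and 246 CPM (log2 -0.94, SE 0.16, edgeR adjusted p = 0.0109). Cops7a, of the COP9 signalosome, had 128 and 106 against 61.9 and 54.5 CPM (log2 -1.01, SE 0.15, edgeR adjusted p = 0.00816). Strap, of messenger RNA and kinase complexes, had 312 and 278 against 197 and 206 CPM (log2 -0.55, SE 0.12, edgeR adjusted p = 0.0225), and the splicing factor Usp39 106 and 90.9 against 64.4 and 60.4 CPM (log2 -0.65, SE 0.13, edgeR adjusted p = 0.0176). With limma on RPKM the calls of Strap (adjusted p = 0.284 and 0.292) and Usp39 (0.196 and 0.191) were lost, and that of Cops7a on log2(RPKM + 1) (0.0573). Cnbp, a nucleic acid-binding protein, was not called, at 557 and 463 against 390 and 430 CPM. The calls of Sec61a1, Cops7a, Strap and Usp39 were lost without either 2xSCS70 library.

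Promoter windows of 300 bases from RefSeq were matched for 613 of the 723 tested members (84.8%). Windows with at least 0.6 of the expected CpG made up 64.8% of members and 69.7% of genes on the other autosomes. Among members within 0.5 of the chromosome median the share was 75.5% (200 of 265). It was 44% among those 2-fold or more below (48 of 109) and 53.8% among those 2-fold or more above (49 of 91). The shift itself was alike in both classes. CpG-rich members had a median of -0.34 and CpG-poor ones -0.30, while the other autosomes had 0.04 and 0.07. In the proximal part these medians were -0.65 and -0.74. TATAAA was found in 5.66% of members near the chromosome median, in 13.8% of those far below and in 13.2% of those far above, beside 8.32% of all 613 members with a window and 7.4% of tested genes on the other autosomes. Over all 32851 RefSeq windows, untested genes included, it was 13.6%. Genes of the other autosomes were not divided by their departure, and the level of the genes was not held fixed for these shares.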

How the data were processed

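RNA was measured in 2 libraries of each of 2 clonal mouse lines, grouped by line from the labels. An Illumina TruSeq mRNA kit, which does not mark strand, was used, per the labels' protocols. TopHat2 2.0.6, Bowtie and HTSeq are among the tools named, with the build mm10, per the submitters' processing notes, and the gene annotation behind the counts was not given in the sources used here. Raw gene counts were deposited by the authors for each library, per the file headers. The authors also deposited RPKM, per the file headers, in which a count is divided by coding length and library reads. For replicate 1 of each line, 25 names that a spreadsheet had made into dates were restored by position, and 69 rows with a shared name were kept apart.

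Counts as deposited were fitted with edgeR 4.0.16 in R 4.3.3 over the whole table (quasi-likelihood test, TMM scaling, filterByExpr, 14496 genes tested), with Benjamini-Hochberg adjustment over all tested genes and calls at an adjusted p under 0.05. TMM factors also scaled the CPM. An SE is the size of the log2 change over the root of its F statistic. The common biological coefficient of variation was 20.4%. A floor of 3 fragments was 0.154 and 0.157 CPM in 2xSCS2F10 and 0.109 and 0.123 in 2xSCS70. Folds against a line at 0 use that floor, and lines with 1 to 3 fragments got a ratio and its exact 95% interval. Coordinates are those of the deposited tables (mm10), 1-based, and sequences are from RefSeq on GRCm38.p6. The fit was checked on simulated counts with the same spread in both lines and few changed genes. The unequal spread and the many changed genes of these data were not simulated, so that check does not cover them.

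The members, the 11 lists and the tests were chosen with earlier results of these data known. Genes named were the 12 called genes farthest each way from the chromosome median (10 CPM or more on average, lines apart), the 4 called members of each list with the lowest adjusted p (fewer where fewer were called), the 6 members with the highest RPKM, the ends and most abundant gene of the longest runs, and the 3 most abundant genes of the most extreme 10 Mb windows. Other members of a list were named for contrast after their values were seen. Alternatives were upper quartile and RLE scaling, TMM factors without chromosome 6 and the sex chromosomes, no filter, a filter at 5 CPM, DESeq2 1.42.0, limma 3.58.1 on log2(RPKM + 1) and log2(RPKM + 0.1), a replicate block, each library left out, a minimum of 200 counts, the Hoxa rows kept in, and boundaries at 20 and 40 Mb. The labels number only the second library of each line and do not say what the number marks. Deviations of same-numbered libraries from their line means correlated at r = 0.054 across genes. The large T transgene was not analysed here, and some genes of the lists are not reported here. Python 3.11.15, pandas 2.3.3 and matplotlib 3.10.9 made the tables and plots.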

Additional observations from a re-analysis of the deposited data

How the results depend on the processing

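The median of all tested members stayed below 0 in the fits, boundaries and count minimum run, though it was 0.05 in the least abundant of 3 classes of genes. Chromosome 6 was the second lowest autosome in each of the 13 other fits, which reuse the same libraries. Those that change only the scaling shift all genes nearly alike and can hardly alter that order. Upper quartile scaling moved the median of all tested genes from 0.02 to 0.11 and the RPKM scales moved it to 0.15 and 0.25, and the chromosome 6 median was then -0.25, -0.06 and -0.08. The replicate block left the chromosome at -0.37 relative to the other autosomes and the proximal part at -0.42 relative to the rest, with 245 members called lower and 62 higher, and of the named genes Rybp and Capza2 lost their calls under it. Leaving out a library gave -0.38 to -0.34 for chromosome 6 against the other autosomes and -0.44 to -0.32 for the proximal part against the rest. Over the same fits the calls were 13 to 141 higher and 46 to 367 lower on chromosome 6, 1 to 8 higher and 7 to 56 lower in the proximal part, 12 to 134 higher and 39 to 311 lower in the rest, and 291 to 4772 higher and 559 to 4795 lower over all genes. The low ends came without 1 of the 2xSCS70 libraries, where the spread of the single library left was assumed equal to that of 2xSCS2F10, and 42 and 41 of 71 named called genes lost their calls (without replicate 1 and 2). A filter at a mean of 5 CPM gave -0.24 for proximal minus rest, with 43 members called higher, 1 of them proximal and 42 in the rest. On log2(RPKM + 1), limma gave -0.20 for the chromosome, -0.24 for proximal minus rest and lower calls of 153 (27 proximal, 126 in the rest) and 1828 over all genes, against 95 and 3218 higher. On log2(RPKM + 0.1) these were -0.33, -0.37, 160 (29 and 131), 1964, 93 and 3377. Of 71 named called genes 13 and 12 lost their calls on these scales. Upper quartile scaling gave 235 lower and 82 higher calls on the chromosome against 2818 and 3129 over all genes. Members with at least 200 counts gave -0.41 and -0.32. A boundary at 20 Mb left 26 proximal genes called lower, and one at 40 Mb gave -0.24 with 6 proximal genes called higher. In the most abundant of 3 equal classes of autosomal genes, an alternative chosen after seeing the data, the values were -0.40 and -0.06. Of 263 lower and 73 higher calls, DESeq2 shared 262 and 68. With 2 libraries a line, the cause of these changes was not tested, except that the filter and the minimum leave fewer genes.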
